A study of Rattus norvegicus with 33 samples.

Results

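The genes described here are those of the mitochondrial respiratory chain and ATP synthase, measured in rat dorsal root ganglion (DRG). They are all genes whose symbol on the array begins with Nduf, Uqcr, Atp5, Cox4, Cox5, Cox6, Cox7 or Cox8, together with Sdha, Sdhb, Sdhc, Sdhd and Cycs. The rule found 70 genes, each with 1 probe, of 13337 genes with a symbol on the array. By symbol they comprised 30 genes of complex I, which include the annotated pseudogene Ndufs6-ps1, 7 complex I assembly factors, 4 genes each of complexes II and III, Cycs for cytochrome c, 11 genes of complex IV and 13 of ATP synthase. Levels are log2 intensities after background correction and quantile normalization, and a probe was tested if it was detected above the negative control beads (p under 0.05) on 75% or more of a group's arrays, in any group. Of the 70 genes, 66 passed this filter, and 62 were detected on all 33 arrays. The 4 that did not pass were Ndufs4, Cox6a2, Cox8b and Cox8c.

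Rats of 13 weeks (Sasco/Sprague-Dawley) had an absorbable collagen sponge (ACS) placed beside the lumbar spine, soaked with rhBMP-2, a recombinant human form of the bone-inducing growth factor BMP-2 (rhBMP-2/ACS), or with vehicle alone (vehicle/ACS), or had the incisions with no sponge implanted. L4/L5 DRG were taken at 1, 3 and 7 days post surgery (dps). Each of the 3 treatments had 4 arrays at 1 and 7 dps and 3 arrays at 3 dps, each taken as 1 rat. For no sponge at 7 dps, 1 rat per array is assumed, since the paper counts no such rats among its array animals. The sample codes of these 4 arrays are consecutive, while those of both sponge groups at 7 dps are mixed. At 1 and 3 dps each of the 3 treatments holds a separate run of the sample codes. Treatment and handling may therefore not be separable at 1 and 3 dps, nor between no sponge and the sponge groups at 7 dps. All groups share the surgery, and no DRG of rats without surgery was analysed here. The DRG is a mixture of neurons, glia and other cells, so that fewer cells of a type and less RNA per cell cannot be told apart. Sensory neuron markers were present in every group, with 16 of the 18 listed markers on the array detected on all 33 arrays, while Calca was detected on none and Scn9a on 5. Detected probes numbered from 10142 to 11674 per array, median raw intensities ranged from 66.7 to 143.5, and arrays of 1 group correlated at 0.983 or above.

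The respiratory chain passes electrons from NADH through complex I, or from succinate through complex II, to ubiquinone, then through complex III and cytochrome c to complex IV, which reduces oxygen. Complexes I, III and IV pump protons across the inner mitochondrial membrane, and ATP synthase uses their return to make ATP. The genes are expressed in nearly every cell, and neurons depend heavily on them to pay for ion pumping and axonal transport. The genes studied here are all nuclear. Transcription factors known to act on many of them include NRF1, the ETS-family factor GABP, YY1, SP1, ERR and CREB.

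The promoters of 4 genes that differed between groups are shown because they carry sites of the kind just named. Each window holds 250 bases before and 50 from the start of the gene, 5′ to 3′ on the strand of the gene, from RefSeq on the rat assembly GRCr8, and capitals mark the motif. Atp5f1a lies at chr18:73567287-73567586 (plus strand), Ndufs5 at chr5:141264353-141264652 (minus strand), Ndufs8 at chr1:210573649-210573948 (minus strand) and Cox4i1 at chr19:65630133-65630432 (plus strand). The capitals are the ETS motif CCGGAAG, or its reverse complement, in Atp5f1a, Ndufs8 and Cox4i1, and in Ndufs5 the NRF1 motif, which is GCGCA and GCGC with 1 base of any kind between them.
Atp5f1a: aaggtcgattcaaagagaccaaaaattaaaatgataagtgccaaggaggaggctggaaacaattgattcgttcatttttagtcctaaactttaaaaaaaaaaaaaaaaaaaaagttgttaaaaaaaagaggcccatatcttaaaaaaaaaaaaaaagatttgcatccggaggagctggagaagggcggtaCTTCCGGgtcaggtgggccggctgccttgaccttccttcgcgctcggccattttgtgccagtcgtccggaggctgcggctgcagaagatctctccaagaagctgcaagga
Ndufs5: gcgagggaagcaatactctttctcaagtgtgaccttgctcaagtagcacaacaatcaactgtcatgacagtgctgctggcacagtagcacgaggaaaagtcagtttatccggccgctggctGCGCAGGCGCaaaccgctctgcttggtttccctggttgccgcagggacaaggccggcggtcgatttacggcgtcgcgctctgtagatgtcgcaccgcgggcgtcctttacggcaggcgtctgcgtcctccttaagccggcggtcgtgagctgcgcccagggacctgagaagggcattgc
Ndufs8: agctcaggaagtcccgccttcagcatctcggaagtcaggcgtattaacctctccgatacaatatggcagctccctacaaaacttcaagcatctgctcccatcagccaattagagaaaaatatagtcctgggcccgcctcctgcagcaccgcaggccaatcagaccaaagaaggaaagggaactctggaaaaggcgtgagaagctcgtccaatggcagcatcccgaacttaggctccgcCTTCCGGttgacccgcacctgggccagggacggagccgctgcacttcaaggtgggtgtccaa
Cox4i1: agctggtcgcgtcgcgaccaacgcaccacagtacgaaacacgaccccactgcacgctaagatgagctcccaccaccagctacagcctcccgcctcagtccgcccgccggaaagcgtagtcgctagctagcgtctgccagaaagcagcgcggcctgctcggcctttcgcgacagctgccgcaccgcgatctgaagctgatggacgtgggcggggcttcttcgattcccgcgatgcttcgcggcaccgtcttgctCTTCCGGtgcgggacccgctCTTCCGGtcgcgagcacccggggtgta
Of the 70 genes, 61 matched a promoter window, and motifs were searched on both strands in all 27457 windows. The NRF1 motif was in 15 of the 61 windows (24.6%), against 4.71% of all windows, and the ETS motif was in 17 (27.9%), against 9.22% of all windows. The YY1 motif AAGATGGCG was in 6 (9.84%, against 1.93% of all windows), the CREB motif TGACGTCA in 4 (6.56%, against 1.91%) and the ERR motif TCAAGGTCA in 2 (3.28%, against 0.412%). The SP1 motif GGGGCGGGG was less frequent in these genes, in 4 windows (6.56%, against 10.4% of all windows). Motifs can share letters at their ends, as ETS and YY1 share AAG. The GC content of the windows had a median of 57.7% in these genes and 52.3% over all genes. A match is a description of letters and not of a bound site.

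Means of the 66 genes over the 9 groups ranged over 0.187 log2 units with quantile normalization and over 0.363 with array medians equalized in its place. With quantiles, the spread between rats of a group was 0.0395 (pooled SD). At 1 dps the mean was 10.96 ± 0.042 in rhBMP-2/ACS rats, 10.94 ± 0.025 in vehicle/ACS rats and 10.93 ± 0.015 in no sponge rats (SD, n = 4 each). At 3 dps it was 10.87 ± 0.079 in rhBMP-2/ACS rats, 10.96 ± 0.052 in vehicle/ACS rats and 10.97 ± 0.041 in no sponge rats (SD, n = 3 each). At 7 dps it was 10.94 ± 0.041 in rhBMP-2/ACS rats, 10.93 ± 0.031 in vehicle/ACS rats and 11.06 ± 0.010 in no sponge rats (SD, n = 4 each).

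With quantiles, the lowest group was rhBMP-2/ACS at 3 dps and the highest was no sponge at 7 dps, while with medians equalized the lowest was vehicle/ACS at 1 dps (mean 10.74) and the highest again no sponge at 7 dps (mean 11.10). At 3 dps the 3 rhBMP-2/ACS rats lay at 10.95, 10.88 and 10.79, against 10.90 to 11.00 in vehicle/ACS rats, so that these groups overlapped. At 7 dps all 4 no sponge rats lay between 11.05 and 11.07, above every sponge-bearing rat, against 10.88 to 10.97 in rhBMP-2/ACS rats and 10.90 to 10.97 in vehicle/ACS rats. With medians equalized these groups overlapped, at 10.93 to 11.10 in rhBMP-2/ACS rats, 10.90 to 11.11 in vehicle/ACS rats and 10.98 to 11.22 in no sponge rats. Since the mean is taken over chosen genes, no test was made of it.

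**Figure D1:**
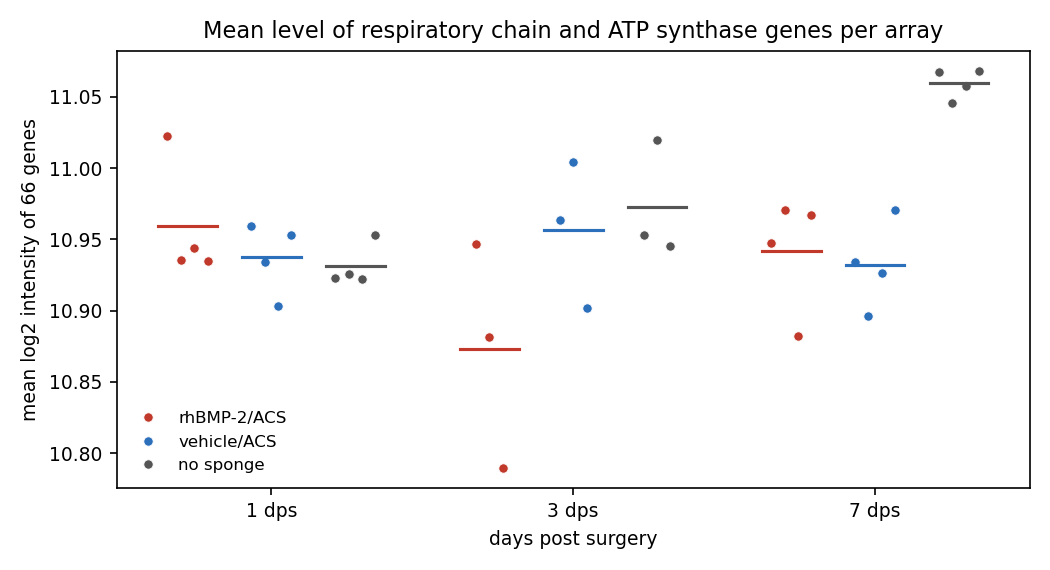
The vertical axis is the mean log2 intensity, after quantile normalization, of the 66 respiratory chain and ATP synthase genes, the horizontal axis days post surgery, with 1 point per array and bars at group means. The 4 no sponge arrays at 7 dps lie from 11.05 to 11.07, and the lowest array, of an rhBMP-2/ACS rat at 3 dps, lies at 10.79.

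With quantile normalization the separation at 7 dps appeared in 4 of the complexes taken alone. Complex I averaged 10.87 to 10.92 in vehicle/ACS rats and 10.86 to 10.94 in rhBMP-2/ACS rats, below the 11.03 to 11.04 of no sponge rats. Complex IV averaged 11.60 to 11.73 in vehicle/ACS rats and 11.63 to 11.75 in rhBMP-2/ACS rats, below the 11.78 to 11.85 of no sponge rats. ATP synthase averaged 11.36 to 11.42 in vehicle/ACS rats and 11.33 to 11.40 in rhBMP-2/ACS rats, below the 11.47 to 11.49 of no sponge rats. Complex III followed the same order, at 12.38 to 12.46 in vehicle/ACS rats and 12.32 to 12.45 in rhBMP-2/ACS rats, against 12.50 to 12.54 in no sponge rats. In complex II the groups were not all separate. It averaged 10.96 to 11.03 in rhBMP-2/ACS rats and 10.90 to 10.99 in vehicle/ACS rats, against 11.01 to 11.08 in no sponge rats, so that rhBMP-2/ACS and no sponge rats overlapped.

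Single members varied little between rats of a group, with a median SD of 0.0906 log2 units, against 0.172 over all 12029 probes tested. This comparison was not matched for intensity, and most members have high signal. Members of low signal varied more, with an SD of 0.263 for Atp5mk, 0.198 for Cox6c and 0.129 for Ndufaf4. After group means were removed, 59 of the 66 genes correlated above 0 with the mean of the other members over the 33 arrays (median r = 0.34, range -0.25 to 0.75). All points share array and normalization, so that this is a description. The genes that followed the others most were Ndufb3 and Ndufa5, small accessory subunits of complex I, and those that followed least were Atp5mc2, a gene for the c subunit of the ATP synthase rotor, and Ndufa10l1, a near copy of Ndufa10. Ndufaf5, a complex I assembly factor, had the largest spread within groups (SD 0.472). At 1 dps it read 10.71, 9.20, 10.20 and 9.22 in rhBMP-2/ACS rats, 9.17, 10.16, 9.44 and 9.32 in vehicle/ACS rats and 9.97, 10.06, 9.79 and 10.08 in no sponge rats. Its values lay far apart in both sponge groups of that day and close together without a sponge. At 7 dps it lay at 8.96 to 9.39 in rhBMP-2/ACS rats, 9.06 to 10.60 in vehicle/ACS rats and 9.26 to 10.16 in no sponge rats, so that the wide groups were others. Ndufaf5 was singled out after its values were seen.

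The first question was whether rhBMP-2 on the sponge changed these genes beyond the sponge with vehicle. At 3 dps, 6 of the 66 genes were lower and 1 was higher in rhBMP-2/ACS than in vehicle/ACS rats at an adjusted p under 0.05 (limma, Benjamini-Hochberg adjustment over 12029 probes). Over all probes, 10.5% passed in either direction, 4.56% as lower and 5.98% as higher. The count for these genes was therefore near the background in total, above it on the lower side and below it on the higher side. The median log2 fold change of the 66 genes was -0.07, against -0.03 over all probes, and 57 of 66 fold changes were below 0, against 55.2% of all probes. With array medians equalized in place of quantiles the median was 0.03 (all probes 0.07). Only 26 of 66 were then below 0, near the 38.3% of all probes. No value of any rhBMP-2/ACS rat overlapped the vehicle/ACS rats for 12 genes that were lower, against 12.2% of all probes, and for 1 that was higher, against 10.6% of all probes.

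The clearest change at 3 dps was in Atp5f1a, which encodes the alpha subunit of the catalytic F1 head of ATP synthase. It read 13.01, 12.96 and 12.74 in rhBMP-2/ACS rats, against 13.23, 13.22 and 13.24 in vehicle/ACS rats. The groups did not overlap, and Atp5f1a was 1.25-fold lower (log2 fold change -0.32, SE 0.0587, adjusted p = 0.000936). The no sponge rats of that day lay between, at 13.04, 13.12 and 13.13, so that vehicle/ACS rats were the high group. Atp5f1c, the gamma subunit that turns within the head, read 11.76, 11.52 and 11.55 in rhBMP-2/ACS rats, against 11.79, 11.88 and 11.81 in vehicle/ACS rats (log2 fold change -0.22, SE 0.0667, adjusted p = 0.0313). Its groups did not overlap either, although the highest rhBMP-2/ACS rat lay close to the lowest vehicle/ACS rat.

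Cycs, the mobile electron carrier between complexes III and IV, showed the same pattern. It read 12.88, 12.81 and 12.64 in rhBMP-2/ACS rats, against 12.98, 13.12 and 13.06 in vehicle/ACS rats (log2 fold change -0.28, SE 0.0770, adjusted p = 0.019). All 3 rhBMP-2/ACS rats were below all 3 vehicle/ACS rats and within reach of the no sponge rats, which read 12.86, 12.79 and 12.65. For Cycs, vehicle/ACS was 0.29 log2 units above no sponge at 3 dps, which did not pass (adjusted p = 0.0754).

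In complex I, Ndufab1 was lower. Its protein is the mitochondrial acyl carrier protein, which is both a subunit of complex I and part of mitochondrial fatty acid synthesis. It read 11.78, 11.68 and 11.43 in rhBMP-2/ACS rats, against 11.87, 12.04 and 11.99 in vehicle/ACS rats (log2 fold change -0.34, SE 0.0885, adjusted p = 0.0143), with no overlap. Ndufaf6, an assembly factor of complex I, read 8.91, 8.68 and 8.51 in rhBMP-2/ACS rats, against 9.37, 9.19 and 8.87 in vehicle/ACS rats (log2 fold change -0.44, SE 0.138, adjusted p = 0.0382). Here the groups overlapped by 1 rat.

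In complex IV, Cox4i1, the widespread form of the regulatory subunit 4, was lower by the smallest amount. It read 12.85, 12.86 and 12.90 in rhBMP-2/ACS rats, against 13.05, 13.06 and 13.02 in vehicle/ACS rats (log2 fold change -0.18, SE 0.0563, adjusted p = 0.041). The rats of each group lay within 0.1 log2 units of each other and the groups were apart. Against this direction, Atp5mc2 was higher, at 10.68, 10.69 and 10.88 in rhBMP-2/ACS rats, against 10.57, 10.55 and 10.32 in vehicle/ACS rats (log2 fold change 0.27, SE 0.0863, adjusted p = 0.0416). No gene of complex II or III passed at 3 dps, and the 4 complex II fold changes ran from -0.13 for Sdhd to -0.02 for Sdhc.

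These counts rested on few rats. Without rhBMP-2/ACS replicate 1, 11 of the genes passed, while 4 passed without rhBMP-2/ACS replicate 2 and 1 passed without rhBMP-2/ACS replicate 3 or without vehicle/ACS replicate 2. Atp5f1a passed whichever of the 6 rats was left out, at an adjusted p of at most 0.0253, and Cox4i1 passed in none of these 6 fits. With the 2 groups compared alone no gene passed, where 153 of 12029 probes did. Without the detection filter 3 genes passed, where 1172 of 22523 probes did. With arrays weighted by quality 3 genes passed, where 656 of 12029 probes did. The Atp5mc2 call was lost without the filter, with array weights, with groups alone (adjusted p = 0.197) and with the replicate number as a block (adjusted p = 0.0512). With medians equalized, 1 gene was higher and none lower, Atp5f1a was at -0.15, Cycs at -0.12 and Cox4i1 at -0.02, and over all probes 814 were higher and 97 lower, against 719 and 549 with quantiles. Cell type markers moved with the treatment at 3 dps: 8 of 11 macrophage markers and 7 of 8 fibroblast markers tested were higher and none lower, and 4 of 17 sensory neuron markers were lower and none higher. Mean macrophage marker levels were 7.15 to 7.85 in rhBMP-2/ACS rats and 6.01 to 6.82 in vehicle/ACS rats, with summed linear signals of 3197 to 5975 and of 1125 to 2435 in the same order of groups. Mean sensory neuron marker levels were 11.38 to 11.50 in rhBMP-2/ACS rats and 11.59 to 11.64 in vehicle/ACS rats. All 12 macrophage markers on the array were detected on at least 4 arrays, Ptprc on 4, and all 8 fibroblast markers on every array. Their part in the lower respiratory chain genes was not tested.

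**Figure D2:**
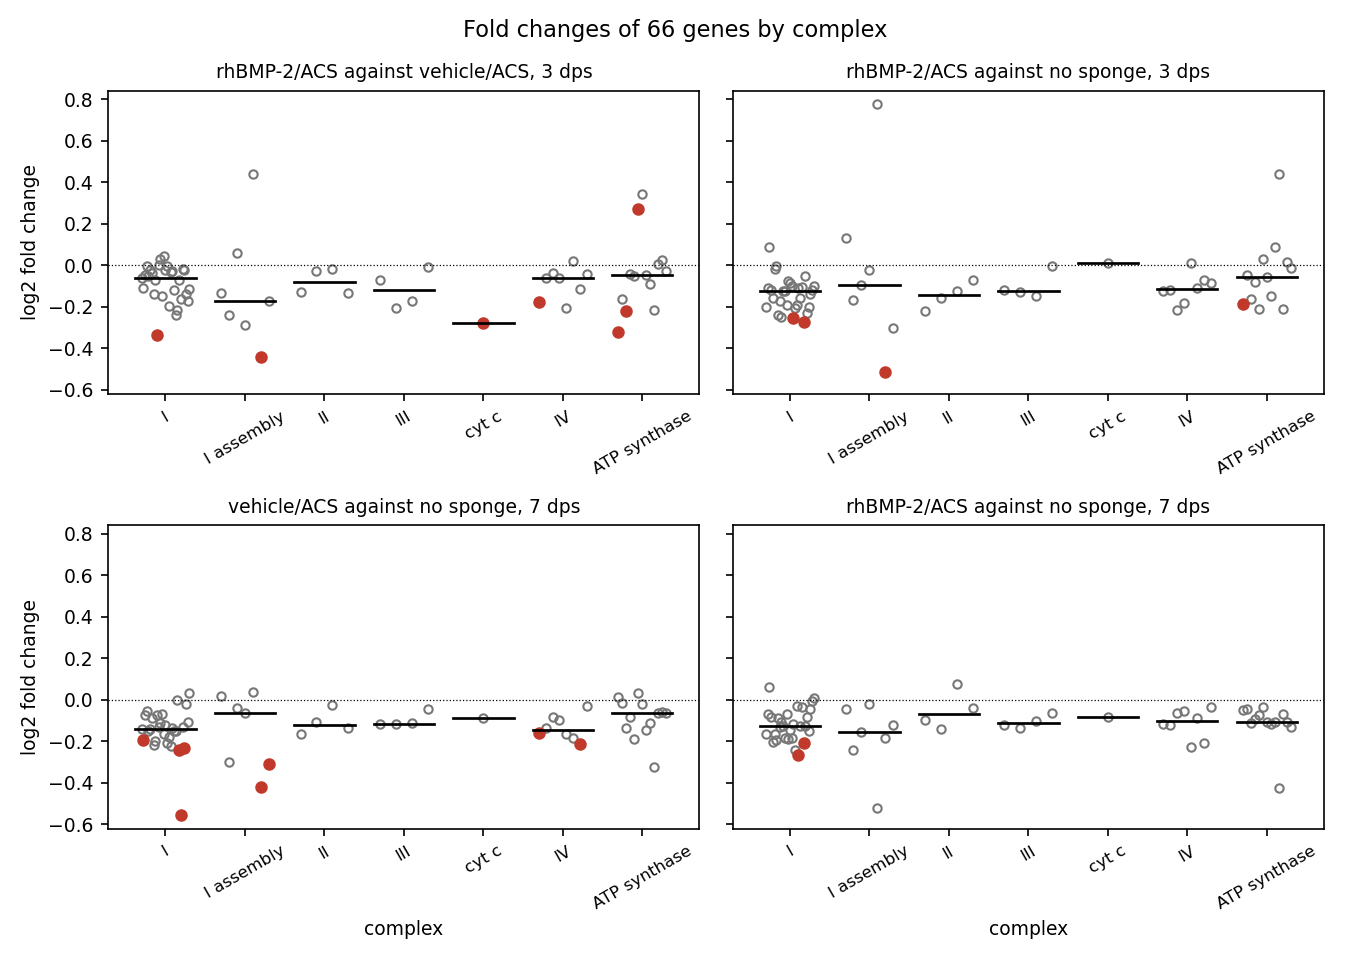
Each point is the log2 fold change of 1 of the 66 genes, by complex, in 4 comparisons, with bars at the median of each complex and filled points for genes with an adjusted p under 0.05. Between rhBMP-2/ACS and vehicle/ACS rats on day 3, 7 points are filled and 1 of them lies above 0, and between vehicle/ACS and no sponge rats on day 7, 8 are filled and all lie below 0.

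At 1 and 7 dps no gene of the chain passed the test between rhBMP-2/ACS and vehicle/ACS rats by limma, and 0% of all probes passed. At an unadjusted p under 0.05 there were 5 genes at 1 dps, against 3.79% of all probes, and 2 at 7 dps, against 6.46%. The lowest p at 1 dps belonged to Atp5f1b, the catalytic beta subunit of ATP synthase, with a log2 fold change of -0.20, and to Atp5me, a membrane subunit of ATP synthase, with 0.17 (both adjusted p = 0.999). At 7 dps it belonged to Ndufs6-ps1 with 0.43 (adjusted p = 0.397) and to the complex I assembly factor Ndufaf7 with 0.19 (adjusted p = 0.753). The median over the 66 genes was 0.02 at 1 dps and 0.00 at 7 dps.

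The treatment effect itself was compared between days. The difference between 7 and 3 dps in rhBMP-2/ACS against vehicle/ACS passed for 3 of the 66 genes, all upward, where 6.9% of all probes passed, 2.34% upward. They were Ndufaf6 (0.68, SE 0.183, adjusted p = 0.023), Ndufs6-ps1 (0.59, SE 0.171, adjusted p = 0.033) and Atp5f1a (0.26, SE 0.0776, adjusted p = 0.0378). The Ndufs6-ps1 probe was detected at 3 dps on 1 of 3 rhBMP-2/ACS arrays and 2 of 3 vehicle/ACS arrays. Atp5f1a at 7 dps read 12.95, 12.94, 12.89 and 12.88 in rhBMP-2/ACS rats, against 13.03, 12.91, 12.94 and 13.03 in vehicle/ACS rats, so that the gap of 3 dps had narrowed to -0.06 (95% interval -0.17 to 0.04). The count was 8 without rhBMP-2/ACS 3 dps replicate 1, 0 without rhBMP-2/ACS 3 dps replicate 3 or vehicle/ACS 3 dps replicate 2, and 1 without vehicle/ACS 3 dps replicate 1 or rhBMP-2/ACS 7 dps replicate 1. Between 3 and 1 dps and between 7 and 1 dps no gene passed by limma, where 1.16% (0.948% upward) and 0% of all probes passed. At an unadjusted p under 0.05 there were 9 and 6 of the 66 genes, against 15.6% and 5.26% of all probes. Between days 3 and 1, 3 genes passed without rhBMP-2/ACS 3 dps replicate 1 and 1 gene without rhBMP-2/ACS 1 dps replicate 3 or 4 or vehicle/ACS 1 dps replicate 4.

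The second question was what the sponge with vehicle did beyond the incisions. At 7 dps, 8 of the 66 genes were lower in vehicle/ACS than in no sponge rats and none was higher. Over all probes 10.2% passed, 3.96% as lower and 6.22% as higher. The count was thus above the background on the lower side and near it in total. The median log2 fold change was -0.12, against -0.04 over all probes, and 61 of 66 fold changes were below 0, against 58.1% of all probes. With array medians equalized 56 of 66 were below 0, against 46.3% of all probes (median -0.10, all probes 0.02). For 18 genes the vehicle/ACS rats all lay below the no sponge rats and for none above them, against 8.61% and 8.47% of all probes.

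Among the 29 genes grouped under complex I by symbol, 4 were lower, the annotated pseudogene Ndufs6-ps1 being 1 of them, and 28 of 29 fold changes were below 0. Ndufs5, an accessory subunit that faces the intermembrane space, read 12.36, 12.49, 12.47 and 12.48 in vehicle/ACS rats, against 12.69, 12.74, 12.69 and 12.65 in no sponge rats (1.18-fold lower, log2 fold change -0.24, SE 0.0561, adjusted p = 0.00498). Ndufs8, a core subunit that holds iron-sulfur clusters on the electron path, read 10.79, 10.82, 10.90 and 10.94 in vehicle/ACS rats, against 11.15, 11.12, 11.06 and 11.06 in no sponge rats (log2 fold change -0.23, SE 0.0602, adjusted p = 0.0116). In both genes every vehicle/ACS rat was below every no sponge rat, and both passed whichever rat was left out. Ndufa10, an accessory subunit of the matrix side, read 12.11, 12.04, 12.04 and 12.11 in vehicle/ACS rats, against 12.22, 12.43, 12.31 and 12.12 in no sponge rats (log2 fold change -0.19, SE 0.0631, adjusted p = 0.0467). Its highest vehicle/ACS rats lay just under its lowest no sponge rat, and since Ndufa10l1 is a near copy, the probe may not tell the copies apart.

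Ndufs6-ps1 passed as well. The reference annotates it as a pseudogene and older annotation called it Ndufs6, so that the transcript behind its probe is uncertain. It was detected on 18 of 33 arrays. It read 4.82, 5.18, 4.99 and 5.17 in vehicle/ACS rats, against 5.49, 5.81, 5.61 and 5.47 in no sponge rats (log2 fold change -0.55, SE 0.112, adjusted p = 0.00143). The probe was detected on 3 of 4 vehicle/ACS arrays and on 4 of 4 no sponge arrays at 7 dps. Its size depended on the treatment of background, with a log2 fold change of -0.30 at an offset of 50 and of -0.22 without background correction, at which it still passed.

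The assembly factors and complex IV followed. Ndufaf6 read 8.73, 8.85, 8.69 and 8.70 in vehicle/ACS rats, against 9.32, 9.04, 9.04 and 9.26 in no sponge rats (log2 fold change -0.42, SE 0.120, adjusted p = 0.0215). Ndufaf7, a methyltransferase that acts on complex I during assembly, read 8.65, 8.85, 8.72 and 8.98 in vehicle/ACS rats, against 9.22, 9.18, 9.05 and 9.00 in no sponge rats (log2 fold change -0.31, SE 0.0893, adjusted p = 0.0239). Neither gene overlapped between the groups, although the nearest rats of Ndufaf7 differed by little. Cox7b, a small subunit of complex IV, read 12.68, 12.59, 12.58 and 12.75 in vehicle/ACS rats, against 12.87, 12.84, 12.91 and 12.83 in no sponge rats (log2 fold change -0.21, SE 0.0614, adjusted p = 0.0233). Cox4i1 read 12.92, 12.97, 12.94 and 13.02 in vehicle/ACS rats, against 13.12, 13.14, 13.15 and 13.06 in no sponge rats (log2 fold change -0.16, SE 0.0488, adjusted p = 0.0351). All 8 tested genes of complex IV had fold changes below 0, and the groups were apart in both named ones.

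No gene of complex II, complex III or ATP synthase passed at 7 dps, although all 4 fold changes of complex II, all 4 of complex III and 11 of 13 of ATP synthase were below 0. In complex II the fold changes were -0.16 for Sdha, the flavoprotein subunit (adjusted p = 0.122), -0.11 for the iron-sulfur subunit Sdhb (adjusted p = 0.182), and -0.02 and -0.13 for the membrane anchors Sdhc and Sdhd (adjusted p = 0.871 and 0.201). The widespread isoforms of complex IV other than Cox4i1 did not pass, with -0.10 for Cox6a1 (adjusted p = 0.307) and -0.03 for Cox8a (adjusted p = 0.846).

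Without vehicle/ACS replicate 3 or without no sponge replicate 1, 3 genes passed at 7 dps, and 5 passed without vehicle/ACS replicate 1 or 2 or no sponge replicate 3. With array medians equalized only Ndufs6-ps1 passed, and over all probes 630 were higher and 60 lower, against 748 and 476 with quantiles. Markers of other cells moved with the sponge too. At 7 dps 8 of 11 macrophage markers and 7 of 8 fibroblast markers were higher, and 3 of 17 sensory neuron markers were lower. Mean macrophage marker levels were 7.30 to 7.57 in vehicle/ACS rats and 6.26 to 6.46 in no sponge rats, with summed linear signals of 3821 to 4944 and of 1523 to 1855 in the same order. Mean sensory neuron marker levels were 11.51 to 11.58 in vehicle/ACS rats and 11.64 to 11.72 in no sponge rats. Their part in the lower levels was not tested. In the skeletal muscle list, the mean level was 5.83 to 6.03 in vehicle/ACS rats and 5.83 to 6.26 in no sponge rats, and 1 of 11 markers was higher.

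**Figure D3:**
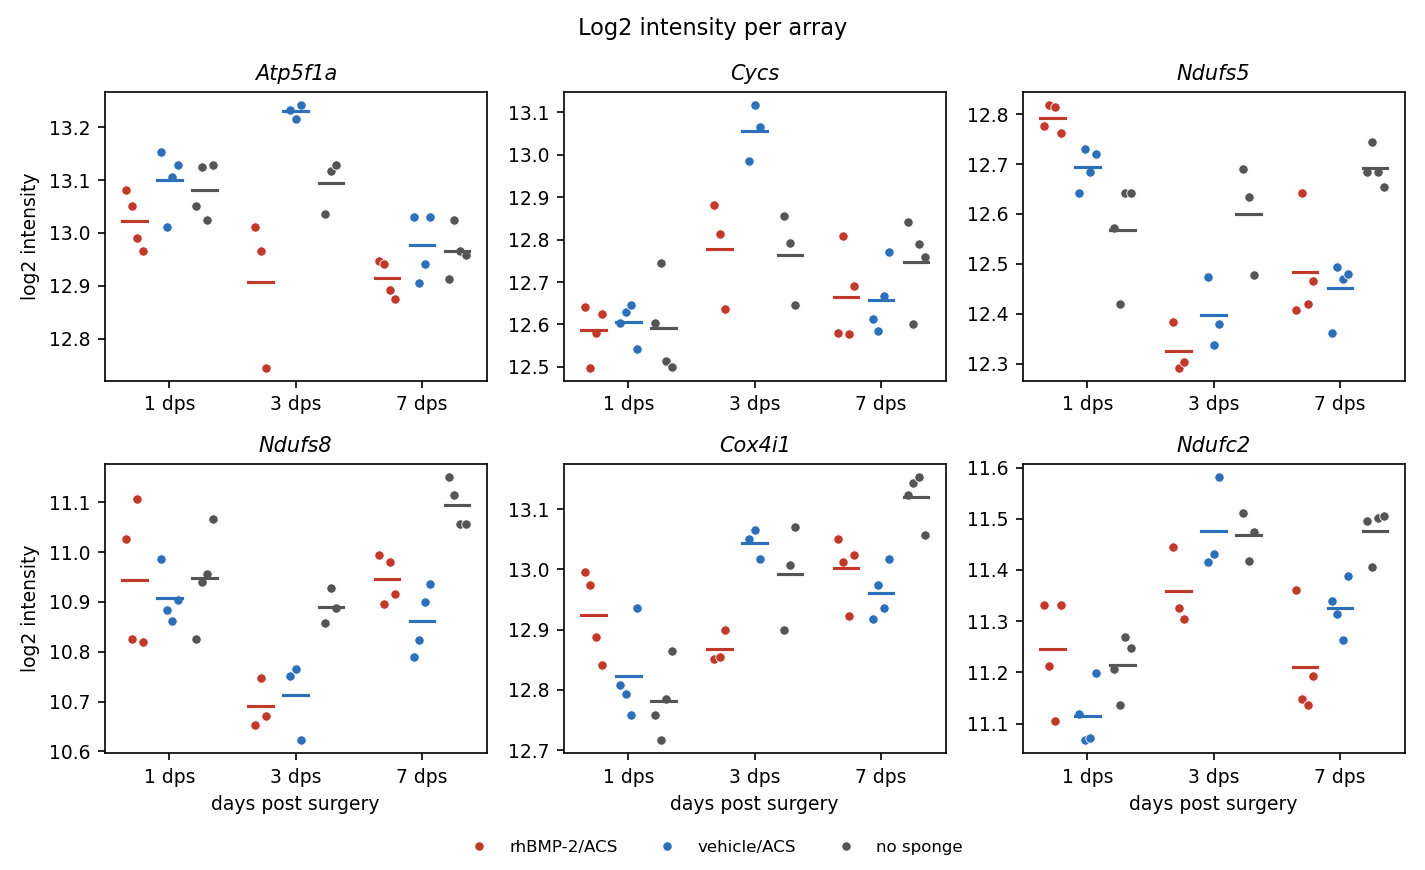
Log2 intensity on each array is plotted against days post surgery for Atp5f1a, Cycs, Ndufs5, Ndufs8, Cox4i1 and Ndufc2, with bars at group means and a separate scale for each gene. Atp5f1a at 3 dps lies at 12.74 to 13.01 in rhBMP-2/ACS rats and at 13.22 to 13.24 in vehicle/ACS rats, and Ndufs5 at 7 dps lies at 12.36 to 12.49 in vehicle/ACS rats and at 12.65 to 12.74 in no sponge rats.

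At 1 and 3 dps no gene passed between vehicle/ACS and no sponge rats by limma, where 0% and 0.341% of all probes passed. At an unadjusted p under 0.05 there were 3 genes at 1 dps (3.43% of all probes) and 16 at 3 dps (13.7% of all probes). The lowest p at 1 dps belonged to Ndufab1, with a log2 fold change of 0.20, and to Ndufb8, an accessory subunit of complex I, with -0.18 (both adjusted p = 1.00). At 3 dps Cycs was followed by Atp5mk, a small membrane subunit of ATP synthase, which read 7.67, 7.97 and 7.94 in vehicle/ACS rats, against 7.23, 7.22 and 7.16 in no sponge rats. These groups were well apart, but the fold change of 0.66 (SE 0.203) did not pass over all probes (adjusted p = 0.136).

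The difference in the sponge effect between days passed for few genes. Between 7 and 3 dps 3 of 66 passed, all downward, where 3.75% of all probes passed, 0.89% downward and 2.86% upward. They were Ndufs6-ps1 (-0.67, adjusted p = 0.0246), Cycs (-0.38, SE 0.102, adjusted p = 0.0318) and Atp5mk (-0.98, SE 0.269, adjusted p = 0.0348). The Ndufs6-ps1 probe was detected on none of the 3 no sponge arrays at 3 dps, so that its level there is known only as a bound. Atp5mk at 7 dps read 7.08, 6.96, 7.83 and 7.45 in vehicle/ACS rats, against 7.78, 7.55, 7.72 and 7.55 in no sponge rats, so that the groups overlapped and the order of their means was the reverse of that at 3 dps. The count was 0 without vehicle/ACS 3 dps replicate 2 or no sponge 3 dps replicate 3. It was 1 without vehicle/ACS 3 dps replicate 3, without vehicle/ACS 7 dps replicate 1 or 2, or without no sponge 7 dps replicate 1 or 3.

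Between 7 and 1 dps 2 of 66 passed, both downward, where 3% of all probes passed, 0.757% downward and 2.24% upward. They were Ndufs6-ps1 (-0.74, SE 0.158, adjusted p = 0.00756), which was detected on none of the no sponge arrays at 1 dps, and Ndufs5 (-0.37, SE 0.0793, adjusted p = 0.00763). Ndufs5 at 1 dps read 12.64, 12.73, 12.69 and 12.72 in vehicle/ACS rats, against 12.57, 12.42, 12.64 and 12.64 in no sponge rats. The groups met at 12.64 on day 1, with the higher mean in vehicle/ACS rats, and on day 7 vehicle/ACS rats were all below. Both genes passed whichever rat was left out. Between 3 and 1 dps no gene passed by limma, where 0% of all probes passed. At an unadjusted p under 0.05 there were 7, against 8.55% of all probes.

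The rhBMP-2 sponge was also set against no sponge. This comparison shares the no sponge rats with the one above, and the rhBMP-2/ACS rats with the first. At 3 dps 4 of the 66 genes were lower and none higher, where 7.55% of all probes passed, 3.33% as lower and 4.21% as higher. The median log2 fold change was -0.12, against -0.04 over all probes, and 57 of 66 were below 0 (56.3% of all probes), or 52 of 66 with medians equalized (52.5% of all probes). For 15 genes all rhBMP-2/ACS rats lay below the no sponge rats (12.4% of all probes) and for 3 above them (9.88%).

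Ndufs5 read 12.38, 12.29 and 12.30 in rhBMP-2/ACS rats, against 12.69, 12.63 and 12.48 in no sponge rats (log2 fold change -0.27, SE 0.0647, adjusted p = 0.0102). Ndufaf6 was 0.51 log2 units lower (log2 fold change -0.51, SE 0.138, adjusted p = 0.022), with no sponge rats at 8.97, 9.36 and 9.31. Ndufb7, an accessory subunit of complex I, read 11.34, 11.04 and 10.97 in rhBMP-2/ACS rats, against 11.39, 11.37 and 11.36 in no sponge rats (log2 fold change -0.26, SE 0.0738, adjusted p = 0.0314). The groups were apart in each of these, although 1 rhBMP-2/ACS rat lay close to the no sponge rats for Ndufb7. Atp5f1a was lower against no sponge too (log2 fold change -0.19, SE 0.0587, adjusted p = 0.0463), at the values given above. No gene passed with medians equalized or without rhBMP-2/ACS replicate 3, 1 passed without no sponge replicate 1 or 2, and 13 passed without rhBMP-2/ACS replicate 1. Mean sensory neuron marker levels were 11.38 to 11.50 in rhBMP-2/ACS rats and 11.61 to 11.69 in no sponge rats, and mean macrophage marker levels were 7.15 to 7.85 in rhBMP-2/ACS rats and 6.41 to 6.77 in no sponge rats. Their part was not tested.

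At 7 dps 2 genes were lower and none higher, where 3.63% of all probes passed, 1.04% as lower and 2.59% as higher. The median was -0.11, against -0.03 over all probes, and 63 of 66 fold changes were below 0 (56.4% of all probes), or 49 of 66 with medians equalized (36.1% of all probes). For 15 genes the rhBMP-2/ACS rats all lay below the no sponge rats (6.06% of all probes) and for none above them (6.23%). Ndufc2, a membrane-arm subunit of complex I, read 11.36, 11.15, 11.14 and 11.19 in rhBMP-2/ACS rats, against 11.50, 11.40, 11.50 and 11.51 in no sponge rats (1.20-fold lower, log2 fold change -0.27, SE 0.0583, adjusted p = 0.00703). Vehicle/ACS rats, at 11.34, 11.31, 11.26 and 11.39, overlapped the rhBMP-2/ACS rats and lay below the no sponge rats. Ndufs5 read 12.41, 12.64, 12.42 and 12.47 in rhBMP-2/ACS rats and was lower as well (log2 fold change -0.21, SE 0.0561, adjusted p = 0.0311). The rhBMP-2/ACS rats were apart from no sponge rats in both genes, by little in Ndufs5 where 1 rhBMP-2/ACS rat reached 12.64. Only 1 gene passed without rhBMP-2/ACS replicate 3 or 4 or no sponge replicate 1 or 3, and none passed with medians equalized. Mean macrophage marker levels were 6.93 to 7.21 in rhBMP-2/ACS rats and 6.26 to 6.46 in no sponge rats, and mean sensory neuron marker levels were 11.49 to 11.59 in rhBMP-2/ACS rats and 11.64 to 11.72 in no sponge rats. Their part was not tested.

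Ndufs5 was thus lower against no sponge in 3 comparisons, with vehicle/ACS at 7 dps and with rhBMP-2/ACS at 3 and 7 dps, and did not pass for vehicle/ACS at 3 dps (log2 fold change -0.20, adjusted p = 0.153). Between rhBMP-2/ACS and vehicle/ACS its difference was -0.07 at 3 dps (95% interval -0.20 to 0.06) and 0.03 at 7 dps (95% interval -0.08 to 0.15). At 1 dps no gene passed between rhBMP-2/ACS and no sponge rats by limma, where 0% of all probes passed. At an unadjusted p under 0.05 there were 5, against 6.24% of all probes. The lowest p belonged there to Ndufs5 with 0.22 (adjusted p = 0.38) and Cox4i1 with 0.14 (adjusted p = 0.761), both with rhBMP-2/ACS on the higher side.

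Other mitochondrial genes were read from lists beside the chain. Of 14 Krebs cycle and pyruvate dehydrogenase genes tested, 1 was lower on day 3 in rhBMP-2/ACS than in vehicle/ACS rats (median log2 fold change -0.12) and 2 in vehicle/ACS against no sponge at 7 dps (median -0.12), with none higher in either. Over all probes 4.56% and 3.96% were lower in these comparisons, and 5.98% and 6.22% were higher. Of 57 mitochondrial ribosomal protein genes, 3 and 1 were lower and none higher (medians -0.06 and -0.06), which is near or under these shares. Assembly factors of complexes II to V had 0 and 1 of 14 lower and none higher, and regulators of mitochondrial gene expression had 1 and 2 of 13 lower and none higher. Glycolysis genes, which make pyruvate in the cytosol, had medians of -0.16 and -0.09, with 3 and 2 of 15 lower, and 1 and 0 higher. Mitochondrial antioxidant genes had 0 and 2 of 7 lower, and carriers, porins and creatine kinase 1 and 1 of 8. Medians below that of all probes were thus shared by the Krebs cycle, mitochondrial ribosomal protein and glycolysis lists, inside and outside the mitochondrion. Medians of the other mitochondrial lists are not given here. The cytosolic ribosomal protein genes went the other way, with 20 of 62 higher in each comparison, 0 and 1 lower, and medians of 0.20 and 0.17.

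**Figure D4:**
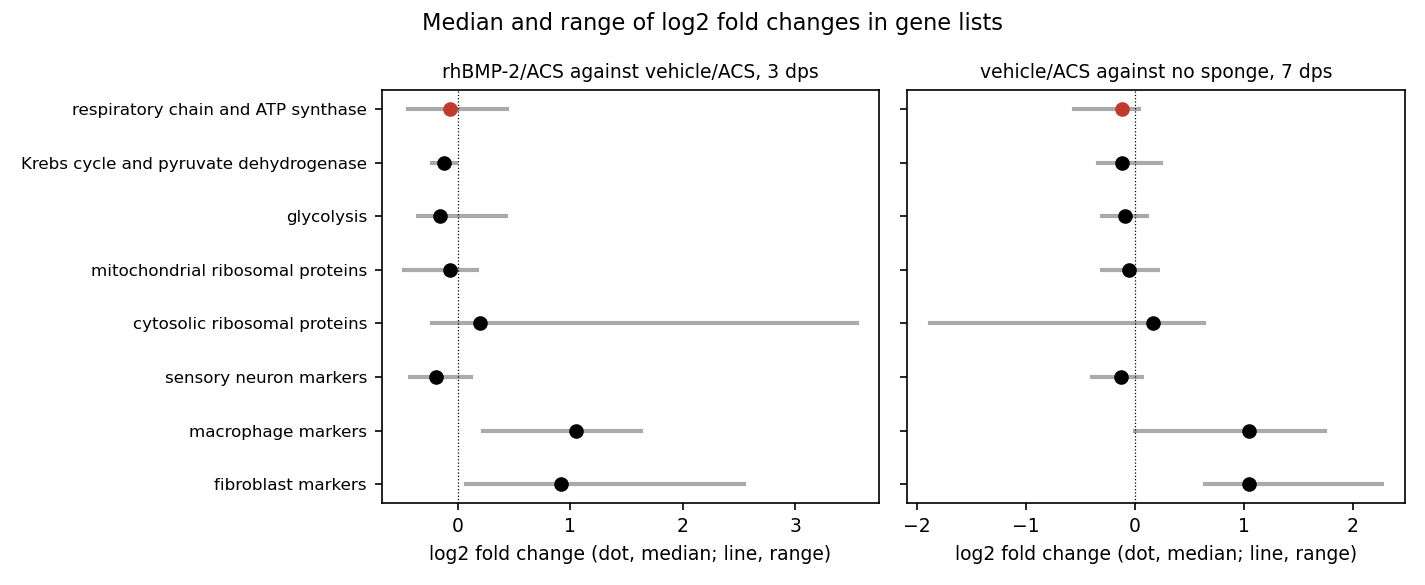
Dots are medians and lines ranges of log2 fold changes in 8 gene lists, on day 3 between rhBMP-2/ACS and vehicle/ACS rats and on day 7 between vehicle/ACS and no sponge rats. The respiratory chain and ATP synthase genes have medians of -0.07 and -0.12, sensory neuron markers of -0.19 and -0.13, and macrophage markers of 1.05 in both.

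The third question was how the genes changed over the days after surgery, taken as the mean of the 3 treatments. At 3 dps against 1 dps 14 of the 66 genes were higher and 19 lower, where 53.7% of all probes passed (27.4% higher, 26.3% lower), and with array medians equalized 41 were higher and 3 lower. At 7 dps against 3 dps 25 were higher and 17 lower, where 58.7% of all probes passed (33% higher, 25.7% lower), and 22 and 7 with medians equalized. At 7 dps against 1 dps 25 were higher and 17 lower, where 68.4% of all probes passed (36.1% higher, 32.4% lower), and 51 and 4 with medians equalized. With quantiles the shares called were near the background. With medians equalized, 4090 of 12029 probes were higher and 2282 lower at 3 dps against 1 dps. The counts were 3503 and 2756 at 7 dps against 3 dps, and 5142 and 3111 at 7 dps against 1 dps. Lower calls were then less frequent in the 66 genes than over all probes in each comparison. Higher calls were clearly more frequent at 3 and 7 dps against 1 dps. The split between higher and lower thus turned on the scaling. Sample codes differ in form between the time points, so that time and array run cannot be told apart. The direction was the same within each of the 3 treatments for 10 of 14 higher and 17 of 19 lower genes (3 against 1 dps), for 23 of 25 and 15 of 17 (7 against 3 dps), and for 23 of 25 and 16 of 17 (7 against 1 dps). These genes were called on the mean of the same 3 treatments, so that agreement is in part built in and is not a replication. The share over all called probes was not counted.

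The largest changes over time exceeded those between treatments. Atp5mk was detected on every array and read 5.77 to 6.77 at 1 dps (median 6.33, 12 arrays), 7.16 to 8.00 at 3 dps (median 7.47, 9 arrays) and 6.96 to 7.83 at 7 dps (median 7.44, 12 arrays). After normalization no array of 3 or 7 dps overlapped those of 1 dps, and Atp5mk was 2.44-fold higher at 3 dps than at 1 dps (log2 fold change 1.29, SE 0.110, adjusted p = 4.54e-11) and 2.17-fold higher at 7 dps than at 1 dps (log2 fold change 1.12, adjusted p = 8.24e-11). Raw Atp5mk intensities of 1 dps (109.9 to 193.9) overlapped those of 7 dps (176.4 to 261.1) but not those of 3 dps (234.5 to 431.6). Cox6c, a small subunit of complex IV, read 5.07 to 5.69 at 1 dps (median 5.48), 4.88 to 5.83 at 3 dps (median 5.16) and 6.04 to 6.64 at 7 dps (median 6.36), and was detected on 30 of 33 arrays. After correction and normalization, all arrays of 7 dps lay above all earlier ones, with a log2 fold change of 1.13 against 3 dps (2.19-fold, SE 0.0878, adjusted p = 3.57e-12) and of 0.89 against 1 dps (adjusted p = 9.93e-11). Raw Cox6c intensities overlapped, at 113.7 to 161.6 on day 3 and 122.7 to 155.2 on day 7. Ndufs4, detected on no array, read 83.2 to 126.5 and 76.8 to 95.9 on these days. Cox6c thus lay near background, and the size of its change depends on the processing. Without background correction Cox6c was 0.51 above 3 dps and 0.42 above 1 dps on the log2 scale, and Atp5mk was 0.82 (3 dps) and 0.70 (7 dps) above 1 dps, and each still passed.

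Ndufaf1, an assembly factor of the membrane arm of complex I, moved the other way at 7 dps. It read 7.38 to 7.77 at 1 dps (median 7.58), 7.37 to 7.86 at 3 dps (median 7.55) and 6.69 to 7.01 at 7 dps (median 6.91). The 12 arrays of 7 dps lay below all others, and the log2 fold change was -0.71 against both 3 dps (SE 0.0636, adjusted p = 7.95e-11) and 1 dps (SE 0.0588, adjusted p = 1.37e-11). Ndufb9, an accessory subunit of complex I, read 12.83 to 13.16 on day 1 (median 12.99), 12.52 to 12.86 on day 3 (median 12.64) and 12.66 to 12.91 on day 7 (median 12.81), with overlap. It was lowest at 3 dps, with a log2 fold change of -0.35 against 1 dps (adjusted p = 3.38e-09), which was -0.07 and did not pass with medians equalized (adjusted p = 0.318).

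**Figure D5:**
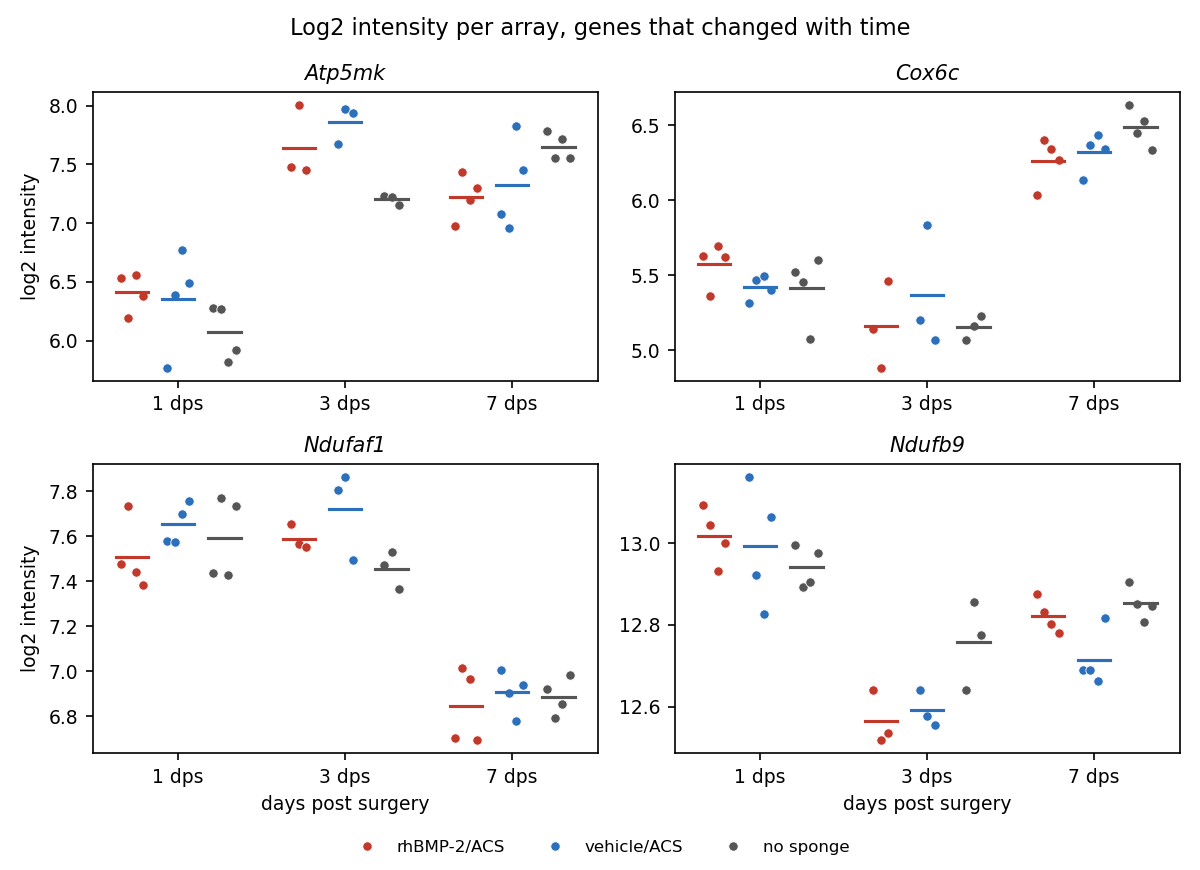
Log2 intensity on each array is plotted against days post surgery for Atp5mk, Cox6c, Ndufaf1 and Ndufb9, with bars at group means and a separate scale for each gene. Atp5mk lies at 5.77 to 6.77 at 1 dps and at 6.96 or above later, and Ndufaf1 lies at 7.01 or below at 7 dps and at 7.37 or above earlier.

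Genes of 1 complex did not move as a block over time. In complex II, Sdhc (-0.31, adjusted p = 2.59e-07), Sdha (-0.16, adjusted p = 0.00226) and Sdhb (-0.15, adjusted p = 0.000264) were lower at 3 dps than at 1 dps, while Sdhd was higher (0.27, adjusted p = 1.39e-06). With medians equalized Sdhc was at -0.07, Sdha at 0.05 and Sdhb at 0.09 and none of them passed (adjusted p = 0.361, 0.53 and 0.21), while Sdhd was at 0.49. At 7 dps against 3 dps each of the 4 went the other way, with Sdhd lower (-0.29, adjusted p = 4.04e-07) and Sdha, Sdhb and Sdhc higher by 0.10, 0.13 and 0.19, where Sdha did not pass with medians equalized (adjusted p = 0.189). Both comparisons use the arrays of 3 dps, so that opposite signs, here and for Cycs below, are not independent observations. In ATP synthase, Atp5pd, a subunit of the peripheral stalk, was lower at 3 dps than at 1 dps (-0.45, adjusted p = 3.41e-10) beside the higher Atp5mk, or at -0.23 with medians equalized, and Atp5mc2 was higher at 7 dps than at 3 dps (0.44, adjusted p = 2.80e-09). In complex I, Ndufs7, a core iron-sulfur subunit, and Ndufb7 were higher at 7 dps than at 3 dps (0.46, adjusted p = 4.66e-11, and 0.36, adjusted p = 6.28e-09). At 7 dps against 1 dps, Ndufa6, an accessory subunit, was higher (0.34, adjusted p = 7.43e-08, or 0.65 with medians equalized) and Ndufa10 lower (-0.32, adjusted p = 9.45e-09), but with medians equalized Ndufa10 was at 0.01 (adjusted p = 0.942). Likewise Ndufs5 was lower at 3 dps than at 1 dps (-0.24, adjusted p = 8.33e-07) and at 0.03 with medians equalized (adjusted p = 0.662). Cycs was higher at 3 dps than at 1 dps (0.27, adjusted p = 2.39e-06, or 0.55 with medians equalized) and lower at 7 dps than at 3 dps (-0.18, adjusted p = 0.000595), which did not pass with medians equalized (-0.15, adjusted p = 0.064).

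The tissue-restricted isoforms of complex IV were at or near the level of the negative control beads. Cox8c, known from testis, was detected on none of the 33 arrays. Cox6a2, the striated muscle form of subunit 6a, was detected on 1 array, and Cox8b, the striated muscle form of subunit 8, on 4. Their widespread partners Cox6a1 and Cox8a were detected on every array. Ndufs4, an accessory subunit of complex I, was detected on no array, which says only that its signal did not exceed the negative control beads.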

How the data were processed

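RNA of L4/L5 DRG was measured on 33 Illumina bead arrays in 9 groups, assigned by the labels that the authors deposited. The labels name a mouse array and the methods a rat array; the symbols are those of the rat platform. Ipsilateral side and 1 rat per array come from the methods and are assumed for no sponge rats at 7 dps. For 22523 probes, the authors exported the intensity and its detection p-value from GenomeStudio (version not given in the sources used here) and deposited both without normalization. The authors also deposited a quantile normalized table of intensity, used as an alternative, and each of its 33 columns ranked highest with its own array (Spearman at least 0.999994).

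Intensities were corrected by neqc (negative controls inferred from the detection p-value, offset 16), quantile normalized and taken to log2, on the scale of the deposited intensity. Group means of 9 groups were estimated for the 12029 probes kept (lmFit, then eBayes with a trend; limma 3.58.1, R 4.3.3). P-values were adjusted by Benjamini-Hochberg within each of 18 comparisons. P-values measure the spread between arrays, taken as rats, and precision is limited by the number of arrays. Scripts were tested on simulated data. The genes and lists were chosen with earlier results of these data known. Named genes were, per treatment comparison, up to 10 past the threshold or else the 2 of lowest p, the 5 of lowest p past the threshold over time and between days, the highest and lowest mean of each complex, tissue-restricted isoforms of complex IV with their partners, complex II genes, Cycs, and the 2 closest to and farthest from the other members. The highest and lowest means are not set against each other, since signals of different probes are not comparable. Promoter windows came from RefSeq (GRCr8). Figures used Python 3.11.15 and matplotlib 3.10.9.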

Additional observations from a re-analysis of the deposited data

Results flagged for a closer look

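A single rat stood far from the others of its group, by Dixon's test at the 95% level, in 4 of 96 groups of 4 tested, for 15 genes and the mean level; chance gives about 1 in 20 groups. Ndufaf7 read 9.159 in vehicle/ACS 1 dps replicate 1 and 8.979 to 9.003 in the other 3 rats. Ndufc2 read 11.405 in no sponge 7 dps replicate 2 and 11.496 to 11.505 in the others, and that rat was the no sponge rat nearest to the sponge groups. The mean level of the 66 genes was 11.023 in rhBMP-2/ACS 1 dps replicate 1 (others 10.935 to 10.944) and 10.953 in no sponge 1 dps replicate 4 (others 10.922 to 10.926).

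Effects of treatment that differed between days, by the test of the difference itself, were those of Ndufs6-ps1 (-0.736) and Ndufs5 (-0.367) between 7 and 1 dps in vehicle/ACS against no sponge. Between 7 and 3 dps in the same comparison they were those of Ndufs6-ps1 (-0.665), Cycs (-0.380) and Atp5mk (-0.981), and in rhBMP-2/ACS against vehicle/ACS those of Ndufaf6 (0.678), Ndufs6-ps1 (0.589) and Atp5f1a (0.260), all on the log2 scale. The Ndufs6-ps1 probe was detected on none of the no sponge arrays at 1 and 3 dps, so that its level there is only a bound. The genes passing between 7 and 3 dps fell to 0 in both comparisons when certain single rats were left out.

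Cox6a2, which entered no test, read 5.575 in rhBMP-2/ACS 7 dps replicate 3 with a detection p-value of 0.00364, above the 4.914 of the highest no sponge rat.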

How the results depend on the processing

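Of 54 results for single genes, 23 kept direction and side of the threshold under every alternative that tested them, and 32 with any 1 rat left out. There were 9 alternatives, of which 8 tested Ndufs6-ps1 and Cox6c. Both counts include results that had not passed and stayed so, and changes over time. Among called treatment results and differences between days, only Ndufs6-ps1 held in every alternative. It did so in vehicle/ACS against no sponge, at 7 dps and between 7 and 1 dps. The authors' normalized table, an offset of 50 and no background correction moved no count of genes called by more than 1.5 times and no median by more than the spread between rats (0.0395). With array medians equalized in place of quantiles, the genes called numbered 1 on day 3 in rhBMP-2/ACS against vehicle/ACS, 1 in vehicle/ACS against no sponge at 7 dps, and 0 in rhBMP-2/ACS against no sponge at 3 and 7 dps. Over all 12029 probes 911, 690, 446 and 359 were called in the same order. The differences between 7 and 3 dps had 1 (rhBMP-2/ACS against vehicle/ACS) and 0 (vehicle/ACS against no sponge), and between 7 and 1 dps 1 (vehicle/ACS against no sponge). Over all probes these had 496, 408 and 381. Medians of the members were then 0.0306 on day 3 in rhBMP-2/ACS against vehicle/ACS, -0.0636 and -0.12 for vehicle/ACS against no sponge at 1 and 3 dps, and -0.0597 and -0.0586 for rhBMP-2/ACS against no sponge at 1 and 7 dps. Group levels ranged over 0.363. Ndufs5 at 3 dps against 1 dps was 0.0325 and Ndufa10 at 7 dps against 1 dps 0.00506. The cause was not tested.

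Without the detection filter, counts were 3 on day 3 in rhBMP-2/ACS against vehicle/ACS, 2 and 1 for rhBMP-2/ACS against no sponge at 3 and 7 dps, and 1 and 1 for the differences between 7 and 3 dps. Over all 22523 probes 1172, 703, 368, 647 and 374 were called, the last 2 for rhBMP-2/ACS against vehicle/ACS and vehicle/ACS against no sponge. With probes detected in every array, the difference between 3 and 1 dps in rhBMP-2/ACS against vehicle/ACS had 1 and that between 7 and 1 dps in vehicle/ACS against no sponge 1. Over the 8349 such probes 127 and 306 were called. With arrays weighted by quality, counts were 3 on day 3 in rhBMP-2/ACS against vehicle/ACS, 1 and 4 for rhBMP-2/ACS against no sponge at 3 and 7 dps, and 4 for the difference between 7 and 1 dps in vehicle/ACS against no sponge. Over all 12029 probes 656, 427, 610 and 659 were called in the same order. With groups compared alone, counts of these genes were 0, 0 and 4 for the same first 3 comparisons. They were 0 for the difference between 7 and 3 dps in rhBMP-2/ACS against vehicle/ACS and 4 for that between 7 and 1 dps in vehicle/ACS against no sponge. Over all 12029 probes 153, 27, 573, 410 and 529 were called in the same order.

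Replicate numbers did not pair the rats: over 33 same-numbered pairs r ran from -0.18 to 0.24, above 0.1 in 6. With the replicate number as a block, 7 genes were called in rhBMP-2/ACS against no sponge at 3 dps, no other count moved by more than 1.5 times, and of the single genes named only Atp5mc2 on day 3 lost its call (adjusted p = 0.0512).

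With 1 rat left out, counts ran from 1 to 11 on day 3 in rhBMP-2/ACS against vehicle/ACS, 0 to 13 and 1 to 3 for rhBMP-2/ACS against no sponge at 3 and 7 dps, and 3 to 8 for vehicle/ACS against no sponge at 7 dps. For the differences in rhBMP-2/ACS against vehicle/ACS they ran from 0 to 3 (3 and 1 dps) and 0 to 8 (7 and 3 dps), and for those in vehicle/ACS against no sponge from 0 to 3 (7 and 3 dps) and 2 to 3 (7 and 1 dps). Medians ran from -0.12 to -0.0238 in rhBMP-2/ACS against vehicle/ACS and from -0.0467 to -0.0012 for vehicle/ACS against no sponge, both at 3 dps, and group levels ranged over 0.145 to 0.224. Ndufs6-ps1, Cox6c, Atp5mc3 and Ndufb4 lay near background on some arrays, which limits their values.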
